A study of Homo sapiens with 2 samples.

Results

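Lactate dehydrogenases, malic enzymes and pyruvate dehydrogenase kinases decide what a cell does with pyruvate and malate. The 10 human genes described here, out of 20802 in the deposited table, are LDHA, LDHB and LDHD, the malic enzymes ME1, ME2 and ME3, and the kinases PDK1, PDK2, PDK3 and PDK4. They were picked by name, with the read counts of these same libraries already known, so their differences between the libraries are given as descriptions and carry no test. All 10 names were found in the table, and 9 genes were measured, meaning at least 10 counts in at least 1 library.

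The study compared 2 established prostate cancer cell lines, LNCaP, grown from a lymph node metastasis, and MDA PCa 2b, grown from a bone metastasis, in a project on health disparities. Both are labelled wild type, and no treatment other than isolation of total RNA is labelled for either. Each line is represented by 1 library, so the line, its origin, its culture and its library cannot be told apart, and no spread between cultures can be measured. RNA was read with AmpliSeq Transcriptome sequencing, which amplifies 1 short amplicon per gene. Transcript length therefore does not enter a gene's value, which hangs on 1 position of the transcript and would be lowered by a sequence difference where a primer binds.

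The LNCaP library held 10778061 counts and the MDA PCa 2b library 8558660. All 8 prostate luminal markers were read in both. A level in CPM is the count relative to the size of its library, corrected by a TMM normalisation factor, and pairs of values list LNCaP first. The luminal markers summed to 3604 and 4364 CPM, fibroblast markers to 14.1 and 3.76 CPM, leukocyte markers to 6.27 and 17.6 CPM, and endothelial markers to 3.51 and 4.35 CPM. Of 5 leukocyte and 4 endothelial markers, 3 (PTPRC, CD3E and LYZ) and 2 (CDH5 and KDR) were at 0 in both libraries. CD14 had 68 and 149 counts, PECAM1 18 and 36, VWF 20 and 1, and the fibroblast marker COL1A1 132 and 24. Their part in the results was not tested.

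Lactate dehydrogenase is a tetramer of A and B subunits that interconverts pyruvate and lactate. The A subunit, encoded by LDHA, is typical of skeletal muscle and of glycolytic tumours, and the B subunit, encoded by LDHB, of heart. Malic enzymes turn malate into pyruvate and reduce NADP or NAD on the way, and the cytosolic enzyme feeds NADPH to fatty acid synthesis. Pyruvate dehydrogenase kinases phosphorylate and switch off the pyruvate dehydrogenase complex, which commits pyruvate to the citrate cycle. Normal prostate epithelium is known for secreting citrate rather than oxidising it, and prostate cancer cells for resuming its oxidation.

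The promoters of 4 of the genes are shown because their transcripts either differed most between the lines among the 10 genes (LDHB, ME1) or belong to the textbook targets of the hypoxia-inducible factors (LDHA, PDK1). Each sequence is the RefSeq window from 250 bases before to 50 bases after an annotated start, from build GRCh38.p14, printed in the direction of transcription. Capitals mark the letters ACGTG or GCGTG, the core of the hypoxia response element, and TGACNNNGC, the core of the antioxidant response element, on either strand.
LDHB, chr12:21657793-21658092, minus strand: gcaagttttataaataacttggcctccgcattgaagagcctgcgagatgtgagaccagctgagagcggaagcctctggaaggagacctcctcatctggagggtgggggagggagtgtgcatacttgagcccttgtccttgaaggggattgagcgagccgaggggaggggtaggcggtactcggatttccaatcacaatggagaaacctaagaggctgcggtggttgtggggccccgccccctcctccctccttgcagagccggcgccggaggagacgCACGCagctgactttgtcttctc
ME1, chr6:83431002-83431301, minus strand: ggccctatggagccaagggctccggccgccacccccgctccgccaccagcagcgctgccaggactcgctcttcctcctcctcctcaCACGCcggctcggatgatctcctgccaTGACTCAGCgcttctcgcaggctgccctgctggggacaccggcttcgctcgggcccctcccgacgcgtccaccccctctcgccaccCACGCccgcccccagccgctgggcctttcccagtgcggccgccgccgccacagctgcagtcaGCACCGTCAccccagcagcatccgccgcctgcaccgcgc
LDHA, chr11:18394313-18394612, plus strand: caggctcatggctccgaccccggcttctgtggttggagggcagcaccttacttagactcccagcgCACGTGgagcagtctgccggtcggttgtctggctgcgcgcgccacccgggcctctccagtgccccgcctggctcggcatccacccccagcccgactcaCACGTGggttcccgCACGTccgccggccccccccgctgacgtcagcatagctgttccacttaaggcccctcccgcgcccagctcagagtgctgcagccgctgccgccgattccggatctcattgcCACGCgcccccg
PDK1, chr2:172555840-172556139, plus strand: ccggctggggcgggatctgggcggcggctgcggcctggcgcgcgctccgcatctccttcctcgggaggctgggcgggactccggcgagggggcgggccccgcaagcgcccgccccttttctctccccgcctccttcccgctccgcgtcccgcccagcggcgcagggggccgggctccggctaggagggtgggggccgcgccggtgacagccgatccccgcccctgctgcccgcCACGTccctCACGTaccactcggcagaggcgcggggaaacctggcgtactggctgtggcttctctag

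RefSeq gives LDHA and PDK1 a second start each, and the windows shown for them are the ones with ACGTG, since the other window of each held none. The LDHA window shown held 5 matches to ACGTG, of which 4 form 2 overlapping pairs because CACGTG reads the same on both strands, and the PDK1 window shown held 2. The LDHB window held none, and 1 match to GCGTG. ME1 had no ACGTG, 2 matches to GCGTG and 2 to TGACNNNGC, of which the one on the printed strand begins at position −137 from the start site. Of 21073 windows of genes in the table, 23.2% held ACGTG, 43.1% GCGTG and 13.9% TGACNNNGC. The members other than LDHD had 15 windows over 9 genes, some of them overlapping, with ACGTG in 6 of them, and TGACNNNGC was found in ME1 alone among them. The LDHB window held 14 CpG pairs and the ME1 window 30, against a median of 21 over all windows. A match describes letters, not binding.

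LDHB and ME1 were abundant in LNCaP and practically unread in MDA PCa 2b. LDHB had 2597 counts in LNCaP, or 240 CPM, and 1 count in MDA PCa 2b, or 0.117 CPM. ME1, the cytosolic NADP-dependent malic enzyme, had 3728 counts in LNCaP, or 344 CPM, and none in MDA PCa 2b, a result of 0 that would be compatible with as many as 3 counts, or 0.352 CPM. ME1 thus stood at the 97.8th percentile of all genes by count in LNCaP and LDHB at the 96.2nd.

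Each ratio below has an exact Clopper-Pearson 95% interval, which covers counting error only, since amplified reads carry no molecular identifiers and can be copies of one molecule. LDHB was 2039-fold higher in LNCaP (366 to 80578), and ME1 at least 976-fold higher against 3 counts, with an exact lower limit of 793. By log2 ratio with 0.5 added counts, ME1 ranked 2nd and LDHB 7th of 14418 measured genes on the LNCaP side. Such a combination was rare in the table. Of 2500 genes with at least 1000 counts in LNCaP, 10 (0.4%) had 3 counts or fewer in MDA PCa 2b. ME1 and LDHB were 2 of these. Both were picked with these values known, so nothing is read from their ranks or from this share. The genes nearest to LDHB in log2(CPM + 1) over the 2 libraries were C7orf55 (2235 and 2 counts), PLS3 (1965 and 0) and ME1 itself, at distances of 0.259, 0.431 and 0.544. LDHB and C7orf55 were in turn the nearest to ME1, at 0.544 and 0.796.

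**Figure D1:**
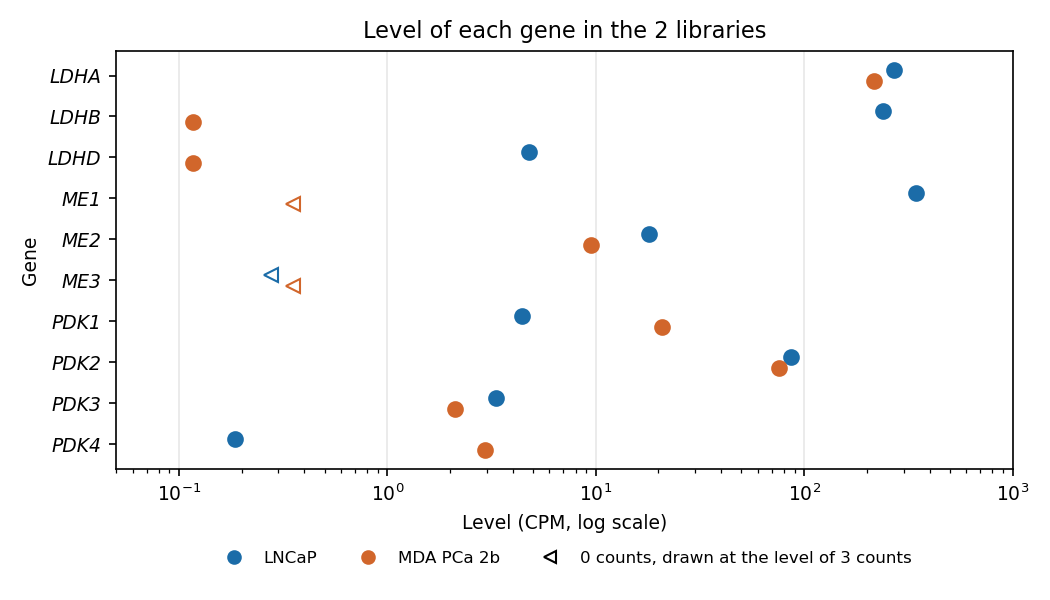
Level of each of the 10 genes in the LNCaP library (blue) and the MDA PCa 2b library (orange), in CPM on a log scale, 1 point per library, with open triangles for 0 counts drawn at the level of 3 counts. LDHB, ME1 and LDHD lie far apart with LNCaP higher, PDK1 and PDK4 with MDA PCa 2b higher, while LDHA and PDK2 lie almost on top of each other.

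LDHA, the partner of LDHB, was read at similar levels in the lines. LNCaP gave 2942 counts (271 CPM) and MDA PCa 2b gave 1849 (217 CPM), a 1.25-fold excess in LNCaP (1.18 to 1.32). LDHA and LDHB together stood at 511 CPM in LNCaP against 217 CPM in MDA PCa 2b, 2.35-fold apart (2.23 to 2.48), with 240 CPM of the LNCaP sum from LDHB. An assumed spread of 20% between libraries removes the 2-fold call of this sum. LDHA made up 53.1% of their counts in LNCaP (exact 95% interval 51.8 to 54.4) and 99.9% in MDA PCa 2b (99.7 to 100). Amplicons differ in efficiency, so a share within a line is no share of transcripts. Comparing shares or family sums between the lines likewise describes counts, since unequal efficiencies do not cancel there. A constant efficiency cancels in the ratio of 1 gene between the lines and in an odds ratio of 2 genes. The quotient of LDHA to LDHB was 1.13 in LNCaP and 1849 in MDA PCa 2b, an odds ratio of 1632 (292 to 64526).

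LDHD, the mitochondrial enzyme that oxidises D-lactate, went the way of LDHB at a far lower level. LNCaP gave 52 counts (4.8 CPM) and MDA PCa 2b gave 1, so that LDHD was 40.8-fold higher in LNCaP (7.01 to 1643). GENCODE release 29 lists 6 pseudogenes named after LDHA, 3 named after LDHB and 1 named after ME2. None has a row in the table, and reads of these members may have been shared with them. In MDA PCa 2b any such reads under LDHB numbered 1 at most, which is its whole count.

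Neither of the other malic enzymes was higher in MDA PCa 2b. ME2, the mitochondrial NAD-dependent enzyme, had 195 counts in LNCaP (18 CPM) and 81 in MDA PCa 2b (9.52 CPM), 1.89-fold higher in LNCaP (1.45 to 2.48), an interval that spans 2-fold. ME3, the mitochondrial NADP-dependent enzyme, was at 0 in both libraries. Summed over the family, malic enzyme counts stood at 362 CPM in LNCaP against 9.52 CPM in MDA PCa 2b, 38-fold apart (30.5 to 48). ME1 held 95% of the family counts in LNCaP (94.3 to 95.7), and ME2 held all 81 in MDA PCa 2b, which allows ME1 a share of up to 3.7% if 3 counts are taken for 0, and up to 4.45% by the exact interval.

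**Figure D2:**
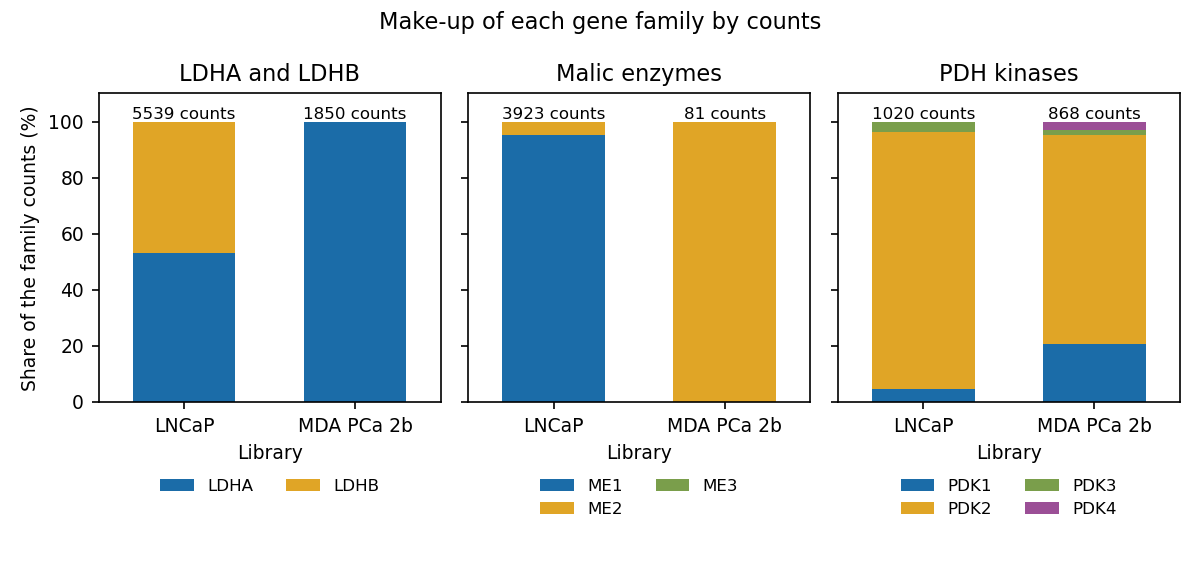
Share of each gene in the counts of its family, in percent, with 1 bar per library and the family's total counts above the bar. LDHB fills 46.9% of the LDHA and LDHB bar in LNCaP and is too small to see in MDA PCa 2b, ME1 fills most of the malic enzyme bar in LNCaP and ME2 all of it in MDA PCa 2b, and the PDK1 part is 4.71% in LNCaP and 20.5% in MDA PCa 2b.

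By read counts, the kinases differed in make-up more than in their sum, which adds amplicons of unequal efficiency and is mostly PDK2. PDK2, the most widely expressed of the kinases, had 934 counts in LNCaP (86.2 CPM) and 647 in MDA PCa 2b (76 CPM), a ratio of 1.13 (1.02 to 1.26). PDK1, a hypoxia-inducible kinase, had 48 counts in LNCaP (4.43 CPM) and 178 in MDA PCa 2b (20.9 CPM), 4.72-fold higher in MDA PCa 2b (3.42 to 6.64). PDK4, the kinase induced by fasting and glucocorticoids, had 2 and 25 counts (0.185 and 2.94 CPM), 15.9-fold higher in MDA PCa 2b (3.97 to 139). PDK1 and PDK4 were thus the members higher in MDA PCa 2b, at low to moderate levels.

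PDK3 had 36 and 18 counts, 1.57-fold higher in LNCaP with an interval that includes no difference (0.869 to 2.94). The 4 kinases summed to 94.1 CPM in LNCaP against 102 CPM in MDA PCa 2b, 1.08-fold higher in the latter (0.989 to 1.19). PDK2 made up 91.6% of the kinase counts in LNCaP (89.7 to 93.2) but 74.5% in MDA PCa 2b (71.5 to 77.4). PDK1 made up 4.71% (3.49 to 6.19) and 20.5% (17.9 to 23.3). Against PDK2 in the same library, the odds of PDK1 were 5.35 times higher in MDA PCa 2b (3.8 to 7.64), those of PDK4 18 times (4.47 to 158) and those of PDK3 0.722 times (0.382 to 1.32).

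Genes whose whole interval lay beyond 2-fold, in either direction, are called 2-fold apart. Among all 14418 measured genes 24.1% were called, 13.2% higher in LNCaP and 10.9% higher in MDA PCa 2b. Of the 9 measured members, 5 were called, LDHB, LDHD and ME1 higher in LNCaP and PDK1 and PDK4 higher in MDA PCa 2b. Because the members were picked with these values known, nothing is read from that share. Their median log2 ratio of LNCaP over MDA PCa 2b was 0.63, which is the value of PDK3, and that of all measured genes 0.00. Nothing is read from this median either.

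**Figure D3:**
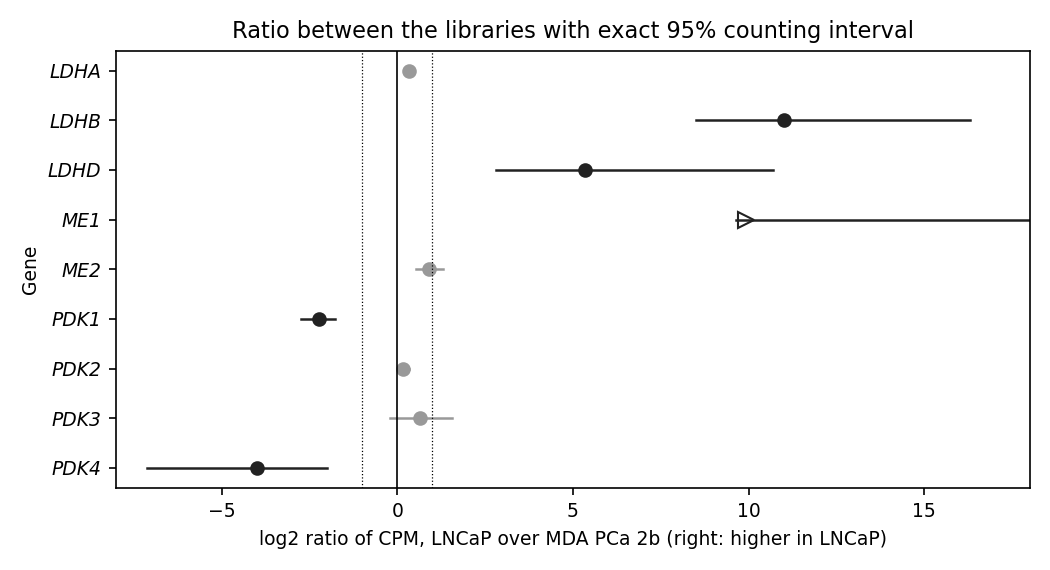
log2 ratio of CPM, LNCaP over MDA PCa 2b, for the 9 measured genes, with exact 95% counting intervals as lines, 2-fold as dotted lines, black for genes called at least 2-fold apart and grey for the others. The open triangle for ME1 is the bound of 976-fold against 3 counts, and its line runs off the plot because the count in MDA PCa 2b was 0. PDK1 and PDK4 are the called genes on the left.

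Of the genes around LDHB and ME1 on their chromosomes, some were read in both libraries and others were at 0 in both. Of the 10 nearest genes with a row in the table around LDHB on chromosome 12, 5 were at 0 in both libraries, among them the immediate neighbours GYS2 and KCNJ8. PYROXD1, RECQL, GOLT1B, CMAS and ETNK1 were read in both, with 365, 85, 95, 357 and 139 counts in MDA PCa 2b. All 5 were higher in LNCaP, from 1.98-fold for PYROXD1 (1.75 to 2.24) and GOLT1B (1.55 to 2.53) to 3.04-fold for RECQL (2.39 to 3.9), far less than LDHB.

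Around ME1 on chromosome 6, 8 of 10 neighbours were measured. The immediate neighbour RWDD2A had 580 and 363 counts, 1.25-fold higher in LNCaP (1.1 to 1.43), and PGM3, a sugar phosphate mutase, 177 and 136 counts, a ratio of 1.02 (0.813 to 1.29). Further out on that side, IBTK was 2.18-fold higher in LNCaP (1.78 to 2.68) and UBE3D 1.78-fold higher in MDA PCa 2b (1.41 to 2.27). DOPEY1 had an LNCaP over MDA PCa 2b ratio of 1.1 (0.956 to 1.28). On the other side PRSS35 and RIPPLY2 were at 0 in both, and SNAP91 had 13 and 0 counts. CYB5R4 had 29 and 13 counts. MRAP2 had 0 and 42, so that MDA PCa 2b was higher by a factor of at least 17.8 against 3 counts (exact lower limit 13.9).

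**Figure D4:**
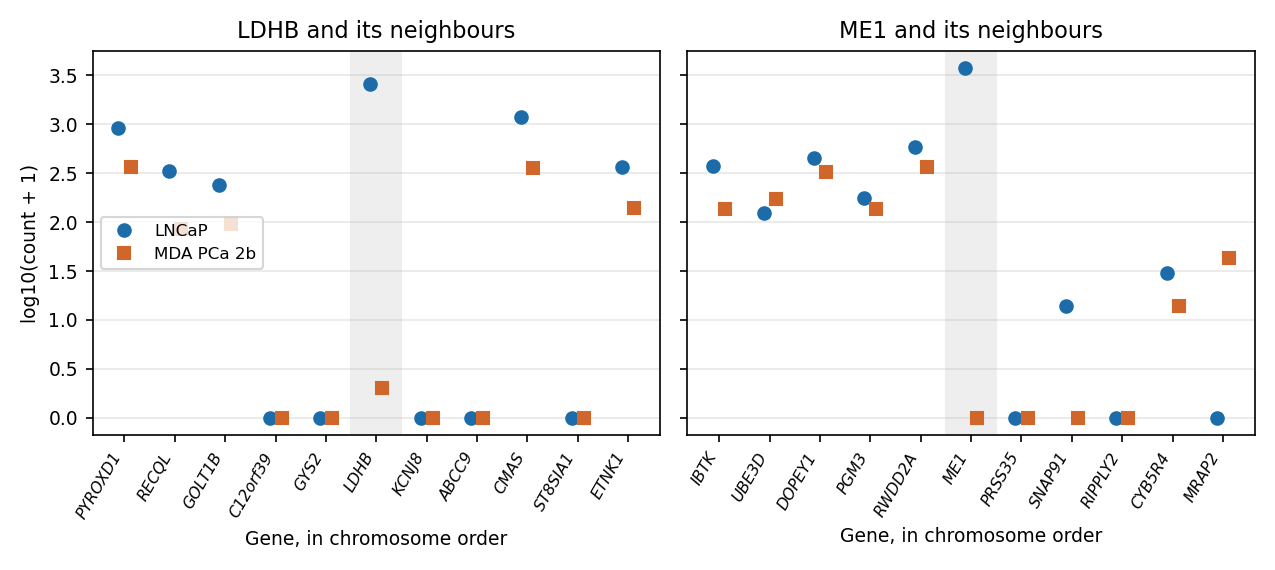
Counts, as log10(count + 1), of LDHB and ME1 (grey bands) and of the 5 genes with a row in the table on either side, in chromosome order, for LNCaP (blue circles) and MDA PCa 2b (orange squares). LDHB at 1 count and ME1 at 0 in MDA PCa 2b stand among neighbours with up to 365 counts there, CYB5R4 (13) and MRAP2 (42) being the lowest of those read, while SNAP91 is at 0 in MDA PCa 2b alone and several neighbours are at 0 in both libraries.

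The target of the kinases, the pyruvate dehydrogenase complex, was read in both lines. Of 9 listed genes of the complex and its phosphatases, 8 had a row and were measured, with a median log2 ratio of 0.65. In each line 1 of them was called higher, beside 24.1% of all measured genes called in either direction. PDHA1, the E1 alpha subunit that the kinases phosphorylate, had 1097 and 772 counts, 1.12-fold higher in LNCaP (1.02 to 1.23). PDK1 relative to PDHA1 was therefore 5.27 times higher in MDA PCa 2b (3.75 to 7.5). DLAT, the E2 core that anchors the kinases, was called higher in LNCaP, with 943 and 158 counts, 4.69-fold (3.96 to 5.58).

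PDHB, PDHX and DLD, further subunits, had LNCaP over MDA PCa 2b ratios of 2.04 (1.52 to 2.78), 1.69 (1.53 to 1.87) and 1.46 (1.37 to 1.55), none called. PDP2, a phosphatase that reverses the kinases, had 87 and 22 counts, 3.11-fold higher in LNCaP (1.93 to 5.21), and PDPR, the phosphatase regulatory subunit, 149 and 179 counts, 1.53-fold higher in MDA PCa 2b (1.22 to 1.91). PDHA2, a testis form of E1 alpha, was called higher in MDA PCa 2b at 4.5-fold (3.58 to 5.7). PDHA2 has a single coding exon, and genes of that kind had a median log2 ratio of −0.68 over 1255 measured genes, against 0.12 over 11336 genes with 2 or more coding exons. The part of this shift in the PDHA2 value was not tested.

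Pyruvate supply and mitochondrial entry had 1 of 6 measured genes called, higher in LNCaP, with a median of 0.28. Among all measured genes 24.1% were called, 13.2% higher in LNCaP. MPC1 and MPC2 form the mitochondrial pyruvate carrier. MPC1 was called, with 1534 and 485 counts, 2.48-fold higher in LNCaP (2.24 to 2.76), and MPC2 was 1.78-fold higher (1.69 to 1.87). The alanine aminotransferases GPT and GPT2, which interconvert pyruvate and alanine, had MDA PCa 2b over LNCaP ratios of 1.4 (1.21 to 1.61) and 1.29 (1.1 to 1.52). The amplicon of PKM, the pyruvate kinase of most dividing cells, gave 23 and 10 counts, too few to place, and PC, pyruvate carboxylase, was at 0 in both. The median of this list lies between the values of PKM and of PKLR, another pyruvate kinase gene with 44 and 41 counts. The intervals of both include no difference. That median was −0.47 when both libraries were thinned to 5000000 counts.

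Lactate transporters differed in opposite directions. SLC16A1, which encodes the monocarboxylate transporter MCT1, had 3439 counts in LNCaP (317 CPM) and 539 in MDA PCa 2b (63.3 CPM), 5.01-fold higher in LNCaP (4.57 to 5.5). SLC16A3, which encodes MCT4, a transporter typical of lactate-exporting cells, had 41 and 161 counts (3.78 and 18.9 CPM), 5-fold higher in MDA PCa 2b (3.53 to 7.23). Those were the called genes among 4 measured of 8, with a median of 0.86, beside 24.1% called among all measured genes. BSG and EMB, the chaperone subunits of these transporters, had LNCaP over MDA PCa 2b ratios of 1.72 (1.65 to 1.79) and 1.9 (1.63 to 2.22), not called.

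Among other lactate dehydrogenase-like genes and the glyoxalases, which form D-lactate, 4 were measured and 1 was called higher in each line. The share called among all measured genes was 24.1%. The median of this list was 0.58, which became 0.31 with no minimum count. UEVLD, which carries a lactate dehydrogenase-like domain, had 284 and 60 counts, 3.72-fold higher in LNCaP (2.8 to 5). LDHAL6B, another lactate dehydrogenase-like gene, had 257 and 899 counts, a 4.45-fold excess in MDA PCa 2b (3.87 to 5.14), and has a single coding exon like PDHA2. The testis gene LDHC had 0 and 1 counts.

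Other NADPH-forming enzymes were set beside ME1, and 2 of 10 measured genes were called higher in each line, with a median of 0.19 that ranged from 0.1 to 0.4 over the alternatives. In MDA PCa 2b, ALDH1L2, a mitochondrial enzyme of folate metabolism that forms NADPH, had 539 counts against 4 in LNCaP, 172-fold higher (66.6 to 632). NNT, the mitochondrial transhydrogenase that makes NADPH from NADH, had 117 counts against 2, 74.5-fold higher in MDA PCa 2b (20.2 to 622). Higher in LNCaP were IDH2, the mitochondrial NADP-dependent isocitrate dehydrogenase, at 4.72-fold (3.78 to 5.94), and H6PD, the hexose-6-phosphate dehydrogenase of the endoplasmic reticulum, at 4.75-fold (3.04 to 7.73).

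Of all measured genes 24.1% were called, 13.2% higher in LNCaP. Malate and malate-aspartate shuttle genes had 3 of 15 members called, all higher in LNCaP, with a median of 0.61. They were MDH1B, a malate dehydrogenase-like gene, at 4.2-fold (2.86 to 6.33), SLC25A10, the mitochondrial dicarboxylate carrier, at 3.24-fold (2.68 to 3.94), and FH, fumarase, which makes malate, at 2.46-fold (2.15 to 2.82). The 2 main malate dehydrogenases, MDH1 in the cytosol and MDH2 in mitochondria, had LNCaP over MDA PCa 2b ratios of 1.81 (1.7 to 1.93) and 1.86 (1.75 to 1.98), not called.

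Of 16 measured transcription regulators of these genes, 6 were called, 4 of them with LNCaP higher, and the median was 0.36. Among all measured genes 24.1% were called, 13.2% with LNCaP higher. NR3C1, the glucocorticoid receptor, an activator of PDK4, had 0 and 82 counts, an excess of at least 34.8-fold in MDA PCa 2b against 3 counts (exact lower limit 27.7). FOXO1, another activator of PDK4, went the other way, with 112 and 4 counts, 22-fold higher in LNCaP (8.35 to 82.1). PPARG was at least 32.2-fold (exact lower limit 25.8) and MLXIPL, a carbohydrate-responsive factor, 21.2-fold (8.05 to 79.2) higher in LNCaP. Named after their values were seen, HIF1A and ARNT, the hypoxia-inducible pair that acts on LDHA and PDK1, had MDA PCa 2b over LNCaP ratios of 1.11 (1.04 to 1.19) and 1.13 (1.04 to 1.23). NFE2L2, which acts through the antioxidant response element, had one of 1.09 (1.01 to 1.18). The other called regulators were EPAS1 and MYC. EPAS1, another hypoxia-inducible factor gene, had 2 and 21 counts, 13.4-fold higher in MDA PCa 2b (3.27 to 118). MYC had 1800 and 619 counts, 2.28-fold higher in LNCaP (2.08 to 2.51).

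**Figure D5:**
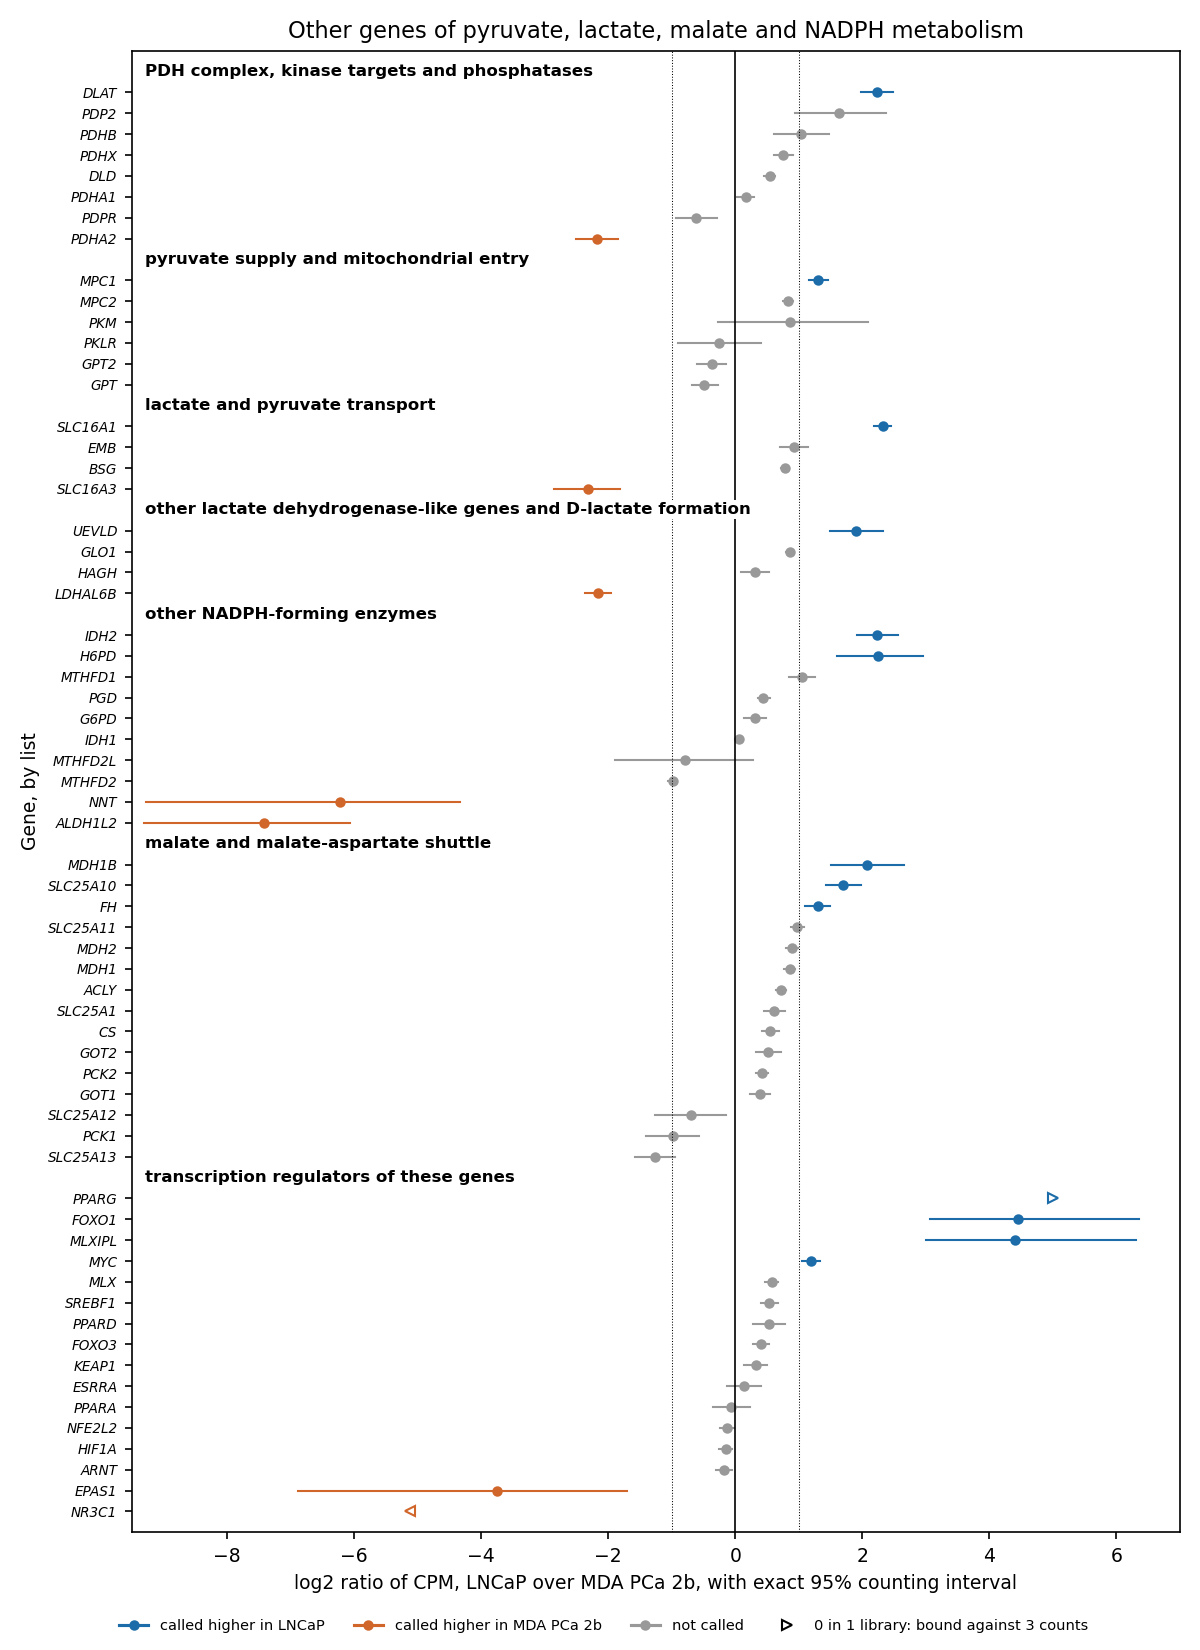
log2 ratio of CPM, LNCaP over MDA PCa 2b, for the 63 measured genes of 7 pathway lists, with exact 95% counting intervals as lines and 2-fold as dotted lines. Blue genes were called at least 2-fold higher in LNCaP (13) and orange genes in MDA PCa 2b (7), open triangles are bounds against 3 counts, and SLC16A1 and SLC16A3 stand at opposite ends of their list.

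Over all 7 lists, 63 of 73 genes were measured, and 13 were called higher in LNCaP and 7 higher in MDA PCa 2b. That is 31.7% of them, against 24.1% of all measured genes, and their median log2 ratio was 0.52 against 0.00. The median of measured genes with 2 or more coding exons was 0.12. Because the lists were chosen with earlier results of these data known, nothing is read from this share or median.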

How the data were processed

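RNA of 1 LNCaP and 1 MDA PCa 2b library was read with AmpliSeq Transcriptome from 10 ng of total RNA, per the labels' protocols. The deposited table holds raw read counts per amplicon, whole numbers with no normalization visible. The submitters' processing notes name hg19 and DESeq with no role. The aligner is not given in the sources used here, nor is the counter. The 10 spike-in rows, at 0, were left out.

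Counts were scaled by library total and edgeR 4.0.16 TMM factors (1.006 and 0.994), which makes a count equal to 0.0923 CPM (LNCaP) or 0.117 CPM (MDA PCa 2b). Ratios have exact intervals conditional on the summed counts (scipy 1.17.1). No p-value was computed. The interval step was run on simulated counts with counting error only, which is the error it assumes. That run therefore does not bear on copied reads or on spread between cultures.

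Members, lists and thresholds were chosen with earlier results of these data known. Named genes are the members, up to 4 called genes per list with at least 50 counts, those with 50 counts in the complex, entry and transport lists, neighbours and nearest genes. PKM, PKLR, PC, LDHC, MDH1, MDH2, HIF1A, ARNT, NFE2L2, EPAS1 and MYC, and the marker genes named, fall outside this rule and were chosen after their values were seen. Alternatives were other scalings (the totals alone, upper quartile, size factors of DESeq2 1.42.0, TMM without small nucleolar RNAs), added spread, thresholds, depth, minimum counts and added counts. Promoters came from RefSeq (GRCh38.p14) and exon numbers from GENCODE release 29. Genes were matched by symbol or gene identifier (19405 of 20802). The planned comparison of protein sequences was not run.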

Additional observations from a re-analysis of the deposited data

How the results depend on the processing

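The calls of LDHB, LDHD and ME1 and the absence of a call for LDHA, ME2, PDK2 and PDK3 held under each of the 12 alternatives in which the gene was measured, and no member changed direction. Some alternatives could not have changed these calls. Added counts enter only the log2 ratio, and a minimum count only decides whether a gene is measured. A threshold of 1.5-fold cannot remove a 2-fold call, and one of 4-fold cannot create one. The log2 ratio of LNCaP over MDA PCa 2b ranged from 9.41 to 10.45 for LDHB, from 10.52 to 12.56 for ME1, from 3.82 to 4.82 for LDHD, from −2.51 to −2.19 for PDK1 and from −4.97 to −3.1 for PDK4. With 4-fold as the threshold 3 members were called, since PDK1 and PDK4 no longer passed. PDK1 also lost its call with an assumed spread of 40% between libraries, and PDK4 was not measured with a minimum of 50 counts. The sum of LDHA and LDHB lost its call with an assumed spread of 20% or 40% and at 4-fold. Genes called in the pathway lists numbered 20, and 34 at a threshold of 1.5-fold, 7 at 4-fold and 7 with a spread of 40%. Among all genes 3477 were called, 6018 at 1.5-fold, 1162 at 4-fold, 1869 with a spread of 20% and 1029 with 40%. When both libraries were thinned to 5000000 counts, the median of the pyruvate supply list went from 0.28 to −0.47 and that of the other NADPH-forming enzymes from 0.19 to 0.4, which was 0.1 under upper quartile scaling. The median of the lactate dehydrogenase-like genes went from 0.58 to 0.31 with no minimum count. Family shares stayed within their exact intervals when libraries were thinned or 0.5 counts were added, apart from PDK4 in LNCaP, whose 2 counts thinned to 0 took its share from 0.196% to 0%. With 1 library per line, no replicate could be left out, and no paired analysis was possible because no group has a second library. Counts of 0 to 2 in 1 library limit LDHB, LDHD, ME1 and PDK4 to wide intervals or a bound.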
